A study of Citrus trifoliata with 2 samples.

Results

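The unigenes annotated as DCP1, the activator of mRNA decapping, were examined in buds of Citrus trifoliata, the trifoliate orange, which is close to citrus and sheds its leaves. The members are the rows whose Swiss-Prot best hit begins with the entry DCP1_ARATH, the Arabidopsis mRNA-decapping enzyme-like protein. The rule gave 4 of 35775 unigenes, which are transcript models listed with no genome position. One library (Zao1) came from the precocious, early-flowering mutant and one library (ZK2) from the normal trifoliate orange, its wild type. Both were made from the terminal bud and the 5 buds below it on spring flushes of 2-year-old trees, untreated, when flowers were being initiated, after self-pruning of the shoot tip. The number of trees behind each library is not given in the sources used here, and neither is the nature of the mutation. With 1 library per group there was no replicate and no test between genotypes. The 95% intervals below are exact and hold counting error alone, so differences between trees are not in them.

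Messenger RNAs carry a cap at the 5′ end that protects them and recruits the translation machinery. DCP2 removes the cap, DCP1 activates it, and VARICOSE (EDC4 in animals) is the scaffold that holds both. The decapped RNA is then degraded from its 5′ end by the exoribonuclease XRN4 in plants. In Arabidopsis this machinery gathers in processing bodies, and plants that lack DCP1, DCP2 or VARICOSE stop growing as seedlings, with defects in the shoot apex and leaves.

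The files hold raw read counts and RPKM, that is, reads scaled to unigene length and to the library total. Counted in units of 1000, the mutant reads on unigenes came to 10037 and the wild-type reads to 9995. Both libraries held reads of shoot apex markers, with 137 mutant reads and 171 wild-type reads on hits to STM, a homeobox gene of the shoot meristem, and 362 and 195 reads on hits to AINTEGUMENTA, an organ growth factor. No unigene had a best hit named WUS. All 33 unigenes with shoot apex hits summed to 3827 mutant reads and 3576 wild-type reads, of which hits to CLV1 held 2908 and 2790. Other shoot apex hits went both ways, with KNAT6 at 83 and 47 reads and YAB2 at 146 and 212. The phloem hits P2A01 and SUC2 had 520 and 2492 mutant reads against 314 and 2361 wild-type reads. Light-harvesting and Rubisco hits of leaf mesophyll summed to 25716 mutant reads and 26826 wild-type reads. XCP1, a protease of xylem, summed to 2889 mutant reads and 1000 wild-type reads over 3 unigenes. Of these, 1 was at least 2-fold higher and 1 at least 2-fold lower, and 1 had at least 100 reads. The lowest and highest of their log2 ratios were −1.75 and 1.57, with a median of −0.85. The part of tissue makeup in the DCP1 values was not tested, and fewer cells of a type and less RNA per cell cannot be told apart in bulk buds.

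One long DCP1 unigene carried most of the reads, and its level was close in both libraries. Unigene13414_All is 1605 bases long, and its hit to Arabidopsis DCP1 had an E-value of 1e-123. The mutant library gave it 779 reads and the wild-type library 824. Per length this was 48.4 RPKM in the mutant library (45.0 to 51.9) and 51.4 RPKM in the wild-type library (47.9 to 55.0), with intervals that overlap. The ratio of mutant to wild-type reads, each per library total, was 0.941 (0.852 to 1.04), which includes 1.

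The remaining 3 members are short, and none of their reads came from the mutant library. Unigene32626_All (496 bases, E-value 2e-68) had 0 mutant reads and 77 wild-type reads. Unigene33507_All (297 bases, E-value 6e-16) had 0 mutant reads and 58 wild-type reads. Unigene35373_All (263 bases, E-value 6e-16) had 0 mutant reads and 46 wild-type reads. The DCP1 unigenes were chosen by these read numbers and the ratios made from them, so the values describe these 2 libraries and support nothing further.

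Against a floor of 3 reads in the mutant library, Unigene32626 was at least 25.8-fold lower, Unigene33507 at least 19.4-fold lower and Unigene35373 at least 15.4-fold lower. These bounds take the wild-type reads as exact. The limits of the exact intervals, which do not, are smaller at 20.5-fold, 15.3-fold and 12.0-fold. On the scale log2((mutant RPKM + 1) / (wild-type RPKM + 1)), the ratios were −4.05 for Unigene32626, −4.36 for Unigene33507 and −4.21 for Unigene35373, against −0.09 for the long Unigene13414. All 4 members passed the minimum RPKM of 1 in at least 1 library, the 3 short ones through the wild-type library alone. Of the 34255 unigenes that passed, 5.31% were at least 2-fold lower in the mutant library on this scale. The 3 short DCP1 unigenes had the lowest 3 ratios of all of them, a rank that was known when they were chosen.

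**Figure D1:**
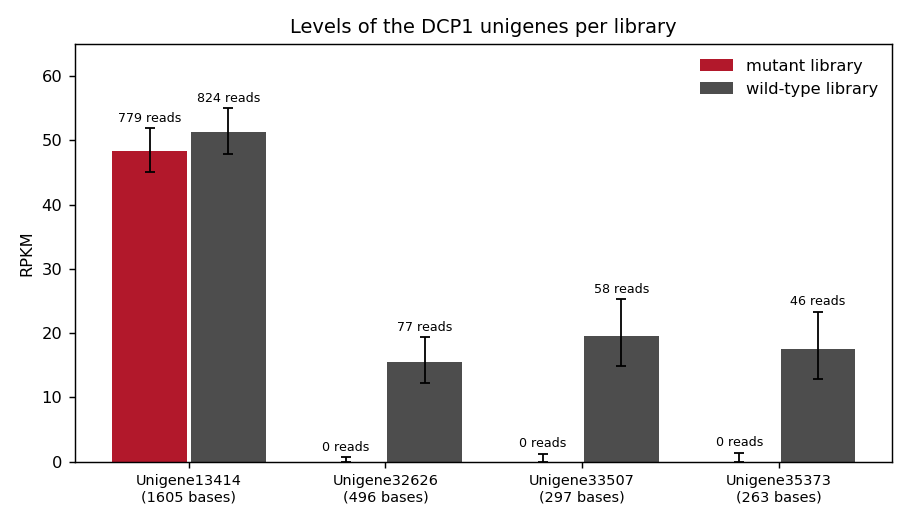
Level in RPKM (vertical axis) of the 4 DCP1 unigenes in the mutant library (red) and the wild-type library (grey), with exact 95% Poisson intervals that cover counting error only and the number of reads above each bar. The long Unigene13414 stood at 48.4 RPKM in the mutant library against 51.4 in the wild-type library, and the 3 short unigenes had 0 mutant reads.

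The short unigenes had like levels in the wild-type library. They stood at 15.5 RPKM (12.3 to 19.4) for Unigene32626, 19.5 RPKM (14.8 to 25.3) for Unigene33507 and 17.5 RPKM (12.8 to 23.3) for Unigene35373. Each of these intervals overlaps the others, so the 3 levels could not be told apart at this depth, and all lie below the interval of the long unigene. Pooled over their 1056 bases, the 181 wild-type reads gave 17.1 RPKM (14.7 to 19.8), which is 33.4% of the level of Unigene13414 in the same library. The corresponding level in the mutant library was 0 RPKM, where a count of 3 on the single unigenes would have been 0.603, 1.01 and 1.14 RPKM.

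Of the DCP1 unigenes, Unigene13414 alone had reads in both libraries, and the sum over the annotation adds the short ones to it. Over all 4 unigenes the mutant library had 779 reads and the wild-type library 1005. The ratio of these sums was 0.772 (0.702 to 0.848), a log2 ratio of −0.37. The short unigenes held 0 of 779 DCP1 reads in the mutant library, which allows a share of up to 0.472% by the Clopper-Pearson interval (3 reads would be 0.385%). In the wild-type library they held 181 of 1005, a share of 18.0% (15.7% to 20.5%, Clopper-Pearson). At the wild-type level, the mutant library would have held 182 reads on them. Without the short unigenes the ratio is the 0.941 of Unigene13414, so the lower sum rests on them. The sum also depends on the unit: added as RPKM, the members gave 48.4 in the mutant library against 104 in the wild-type library, a log2 ratio of −1.10, since RPKM gives a short unigene the same weight as a long one. No further row named DCP1 in the other protein annotations of the table, so the wider rule left the 4 members and both sums as they were.

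How reads that match several unigenes were assigned is not given in the sources used here, so reads of the short and the long unigenes may have been divided between them. Unigene32626 and Unigene13414 share the KEGG orthology entry for mRNA-decapping enzyme 1 and the same animal DCP1 as listed best hit in the larger protein collection. The E-values of that hit were 9e-28 and 4e-30, weaker than the 2e-68 and 1e-123 to the Arabidopsis protein. Unigene33507 and Unigene35373 have neither, and their E-values to the Arabidopsis protein are equal. Whether the short unigenes are pieces of 1 transcript cannot be told from the table, which holds no sequence and no position of a hit in the protein.

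An absence of mutant reads at this depth was rare. The short DCP1 unigenes were chosen with their zeros known and are included in the counts below, so the rarity supports nothing about them. Over all 35775 unigenes at any depth, 1.73% had 0 mutant reads and 1.87% had 0 wild-type reads. Of the 21341 unigenes with at least 20 wild-type reads, 18 had 0 mutant reads, or 0.0843%, and 3 of the 18 were DCP1 unigenes. In the opposite direction, 8 of 21925 unigenes with at least 20 mutant reads had 0 wild-type reads, or 0.0365%. Among the 2271 unigenes with 46 to 77 wild-type reads, the range spanned by the short DCP1 unigenes, the median mutant count was 61 and 5 (0.220%) had 0 mutant reads, 2 of them outside DCP1. All 5 were among the 525 unigenes of this depth numbered from 28000, as the short DCP1 unigenes are, where the median mutant count was 38 and the share at 0 was 0.952%.

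**Figure D2:**
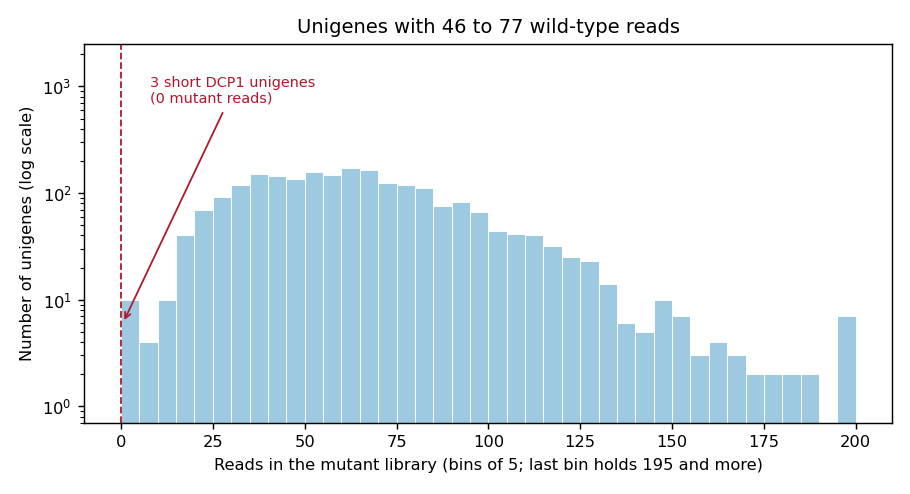
Number of unigenes (vertical log axis) by their reads in the mutant library (horizontal axis, bins of 5) among the 2271 unigenes with 46 to 77 wild-type reads. The 3 short DCP1 unigenes lie in the leftmost bin at 0 mutant reads, while the median is 61 over the 2271 and 38 over the 525 of them numbered from 28000.

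The 18 unigenes without mutant reads fell under 9 Swiss-Prot entries, with 7 unigenes lacking a hit, and DCP1 was the entry that appeared more than once. The DCP1 unigenes were chosen with their zeros known, so this repeat is no finding. They may also be pieces of 1 transcript. For 7 of the 9 entries, another unigene with the same hit had reads in both libraries, as Unigene13414 did for DCP1. The share over all entries was not counted, so the 7 of 9 says nothing particular about these entries. DNA ligase 1, which joins DNA strands in replication and repair, had 0 mutant reads and 44 wild-type reads on Unigene32228 and 414 and 251 reads on Unigene3287. APL, a MYB factor of phloem identity in Arabidopsis, had 0 mutant reads and 115 wild-type reads on Unigene28572. The best-read unigene of the same hit, Unigene8163, had 888 mutant reads and 1017 wild-type reads. Importin alpha, a nuclear import receptor, had 0 mutant reads and 26 wild-type reads on Unigene29640 and 1485 and 1356 on Unigene17871. Myrcene synthase had 0 mutant reads and 33 wild-type reads on Unigene33036. Its best-read other unigene, Unigene23535, went the opposite way, with 208 mutant reads and 11 wild-type reads.

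The position in the unigene numbering moved with the ratio. In bins of 1000 numbers, the median log2 ratio was between −0.04 and 0.12 in each bin below 18000, above 0.4 in each bin from 18000 to 27999, and below −0.4 in each bin from 28000. Unigene13414 lies in the first range, where 0.550% of the kept unigenes were at least 2-fold lower in the mutant library, and the 3 short DCP1 unigenes lie in the last range, where 23% were. That range has a median length of 320 bases and a median of 21 reads over both libraries, and it held all 18 unigenes with 0 mutant and at least 20 wild-type reads, or 0.672% of the 2678 unigenes there with at least 20 wild-type reads. In the range from 18000 to 27999, 28.7% were at least 2-fold higher, and all 8 unigenes with at least 20 mutant and 0 wild-type reads lie in it. The part of the numbering in the DCP1 values was not tested.

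**Figure D3:**
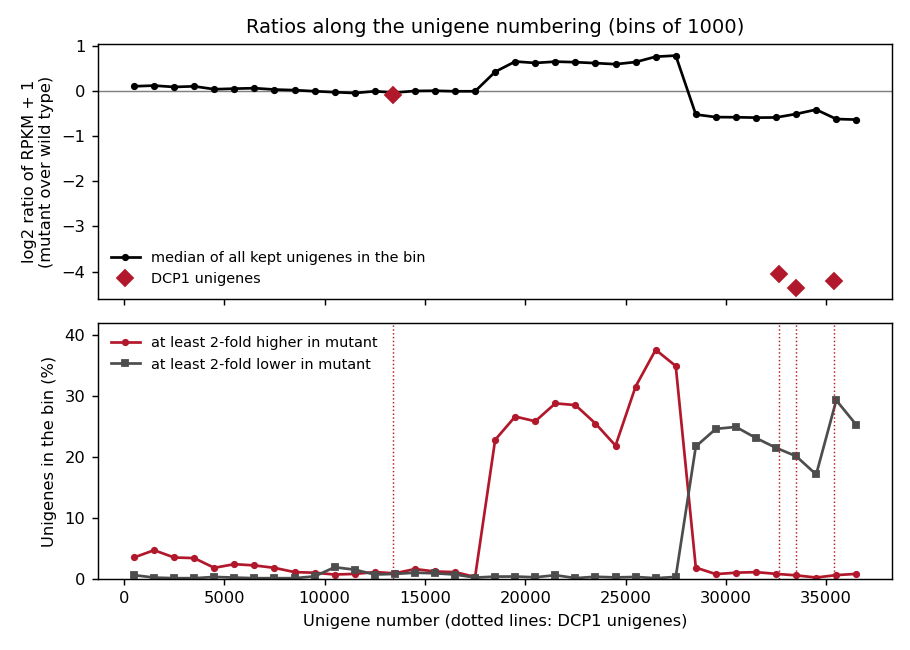
Top, log2 ratio of RPKM + 1 (mutant over wild type) along the unigene number, with the median of the kept unigenes in each bin of 1000 (black) and the DCP1 unigenes (red diamonds). Bottom, percentage of kept unigenes in each bin that were at least 2-fold higher (red) or lower (grey) in the mutant library; the 3 short DCP1 unigenes lie at −4.05 to −4.36, in bins where 20.2% to 29.4% were at least 2-fold lower.

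The partners of DCP1 had ratios on both sides of 1, and none passed 2-fold. Among 21 unigenes of the decapping complex and its activators, 19 passed the minimum RPKM, and 0 were at least 2-fold higher (8.61% of all unigenes) and 0 were at least 2-fold lower (5.31% of all unigenes). Of the 19, 2 lie in the last number range and 0 in the middle one, and in the first range 1.84% of the kept unigenes were at least 2-fold higher and 0.550% lower. With shares this low in that range, the counts of 0 say nothing particular about the partners. The median log2 ratio of the 19 was −0.05, against 0.05 over all unigenes. DCP2, the catalytic subunit, had 707 mutant reads and 644 wild-type reads on Unigene1892, a ratio of 1.09 (0.981 to 1.22).

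The 4 unigenes closest to animal EDC4, the VARICOSE-type scaffold, all had fewer reads in the mutant library. Unigene7696 had 1859 mutant reads and 2017 wild-type reads, a ratio of 0.918 (0.861 to 0.978). Unigene1635 had 1626 mutant reads and 2058 wild-type reads, a ratio of 0.787 (0.737 to 0.840). The less-read Unigene34117 had 60 mutant reads and 119 wild-type reads, a ratio of 0.502 (0.362 to 0.690), and lies in the number range of the short DCP1 unigenes. The last, Unigene21249, was below the minimum RPKM, with 10 mutant reads and 18 wild-type reads and an interval of the ratio that included 1 (0.553, 0.228 to 1.26). Summed, the scaffold had 3555 mutant reads and 4212 wild-type reads, a ratio of 0.840 (0.804 to 0.879).

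Among the activators of decapping, the best-read LSM1 unigene and LSM3 had more reads in the mutant library and LSM2 fewer, with intervals that exclude 1. Such intervals were common, as they hold counting error alone. Of the 34255 kept unigenes, 6768 were higher and 4916 lower by this measure, and of the 104 in the decay lists 20 and 17. An interval that excludes 1 therefore says nothing particular about these unigenes or the scaffold. The PAT1 homologs, which bridge the decapping enzyme and the LSM ring, had 1626 mutant reads and 1654 wild-type reads on Unigene14948 and 1522 and 1569 on Unigene4857. RH8, a DEAD-box helicase of processing bodies, had 1743 mutant reads and 1735 wild-type reads on Unigene17771 and 116 and 124 on Unigene4494. LSM1, the subunit that sets the cytoplasmic ring apart from the nuclear one, had 252 mutant reads and 205 wild-type reads on Unigene2757, a ratio of 1.22 (1.01 to 1.48). Of the ring subunits shared with the nuclear complex, LSM3 was at 700 and 608 reads (ratio 1.15, 1.03 to 1.28) and LSM2 at 365 and 436 reads (0.834, 0.723 to 0.960) in the mutant and wild-type libraries. The intervals of LSM5, LSM6, LSM7 and the LSM4 unigenes with at least 100 reads included 1.

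Among hits to exoribonucleases, the 2 unigenes of XRN4, the enzyme that acts after decapping, went opposite ways. XRN3, a nuclear enzyme of this family in Arabidopsis, had 1629 mutant reads and 1598 wild-type reads on Unigene14387. XRN4, the cytoplasmic one, matched 2 long unigenes with few reads. Unigene20223 had 44 mutant reads and 18 wild-type reads (ratio 2.43, 1.38 to 4.48), and Unigene31562 had 14 mutant reads and 33 wild-type reads (ratio 0.422, 0.209 to 0.811), the last of which was below the minimum RPKM. They lie in the second and the last number range, where the median log2 ratios were 0.65 and −0.55. The part of the numbering in their ratios was not tested. Summed, the 2 XRN4 unigenes had 58 mutant reads and 51 wild-type reads, a ratio of 1.13 (0.764 to 1.68).

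Across the 6 lists of mRNA decay, without DCP1, 104 unigenes passed the minimum RPKM, 1 was at least 2-fold higher and 4 were at least 2-fold lower in the mutant library. This is 0.962% and 3.85%, against 8.61% and 5.31% of all unigenes, with a median log2 ratio of 0.01 against 0.05. All 4 lower unigenes were among the 22 in the last number range. A further 13 lie in the middle range and the rest in the first, where 1.84% of the kept unigenes were higher and 0.550% lower. The shares over all unigenes are therefore not a like background for these lists. The summed reads of the 6 lists were 57024 in the mutant library against 56557 in the wild-type library.

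The unigenes past 2-fold belonged to deadenylation, which shortens the poly(A) tail before decapping, and to nonsense-mediated decay, which removes RNAs with early stop codons. A hit to CAF1 homolog 8, of the CCR4-NOT deadenylase, had 4 mutant reads and 15 wild-type reads on Unigene29107, a log2 ratio of −1.18. A hit to CCR4 homolog 5 had 26 mutant reads and 10 wild-type reads on Unigene5884, a log2 ratio of 1.12. The next largest in this list were PARN-like hits, with 46 mutant reads and 22 wild-type reads on Unigene24673 (log2 ratio 0.81) and 9 and 19 on Unigene36288 (−0.79). Among hits to SMG1, the kinase of nonsense-mediated decay, Unigene29767 had 4 mutant reads and 20 wild-type reads, Unigene30620 had 7 and 22, and Unigene33991 had 8 and 20, the last below 2-fold. The best-read SMG1 hit, Unigene4093, had 483 mutant reads and 524 wild-type reads, a ratio of 0.918 (0.809 to 1.04). Unigene5511, in the first number range, had 46 mutant reads and 79 wild-type reads, a ratio of 0.580 (0.394 to 0.844). The remaining SMG1 hits, Unigene11167 and Unigene27382, had 9 and 13 reads and 16 and 12 reads in the mutant and wild-type libraries. SMG8, which binds SMG1, had 30 mutant reads and 85 wild-type reads on Unigene32865 and 294 and 280 on Unigene13889. UPF1, the core helicase of that pathway, had 2414 mutant reads and 2411 wild-type reads on Unigene10512.

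The 18 exosome and SKI unigenes, which degrade RNA from the 3′ end, had a median log2 ratio of 0.04 with none past 2-fold. Their extremes were Unigene31404, a hit to exosome component 10 with 9 mutant reads and 20 wild-type reads (−0.82), Unigene36446, an RRP4 hit with 8 and 18 (−0.66), Unigene6710, an RRP43 hit with 40 and 61 (−0.56), and Unigene1692, an archaeal exosome hit with 122 and 82 (0.53). The 19 unigenes of cap-binding and poly(A)-binding proteins had a median of 0.10, also with none past 2-fold. Over all unigenes 8.61% were higher and 5.31% lower. Of the 18, 3 lie in the last number range and 1 in the middle one, and of the 19, 4 and 3. In the first range, which holds the rest, the shares were 1.84% and 0.550%. The counts of 0 therefore say nothing particular about either list. In the cap and poly(A) list, hits to the poly(A)-binding protein 2 of fission yeast went both ways. Unigene36452 had 4 mutant reads and 14 wild-type reads, and Unigene33638 had 120 and 184. Unigene24053 had 183 mutant reads and 111 wild-type reads, and Unigene10730 had 293 and 176.

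**Figure D4:**
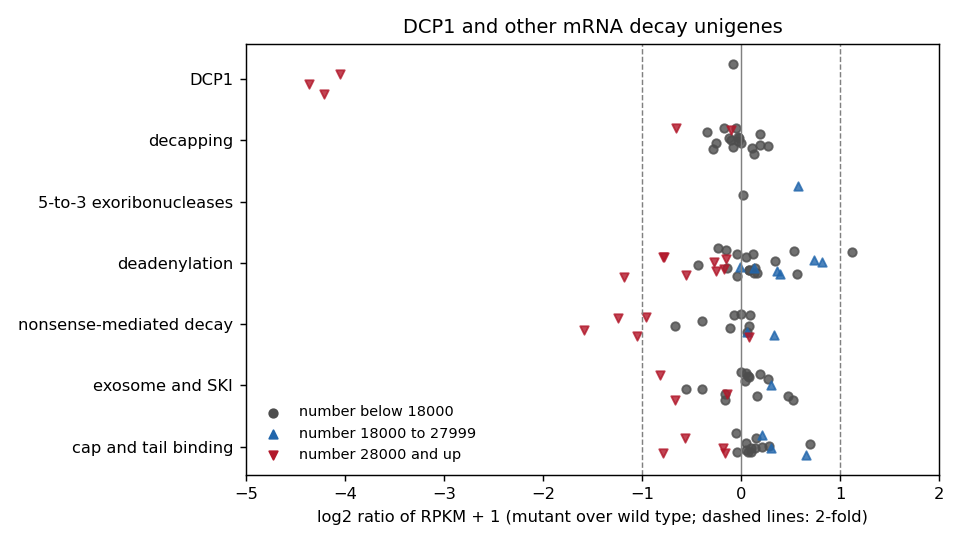
log2 ratio of RPKM + 1 (mutant over wild type, horizontal axis) of each kept unigene of DCP1 and of the 6 mRNA decay lists, with the marker giving the range of unigene numbers and dashed lines at 2-fold. The 3 short DCP1 unigenes lie at −4.05 to −4.36, and the other decay unigenes lie between −1.59 and 1.12.

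The unigenes most like Unigene33507, the member with the lowest ratio, were sought by log2 ratio among 2328 unigenes with a Swiss-Prot hit and a similar read total, over the 2 libraries. The nearest were the 2 other short DCP1 unigenes, at distances of 0.15 (Unigene35373) and 0.31 (Unigene32626), as the search had to return, since they were chosen with the lowest ratios known. After them came Unigene33321, a hit to pathogenesis-related protein PR-4B of tobacco, with 3 mutant reads and 38 wild-type reads and a distance of 1.43. Unigene36389, a hit to beta-D-xylosidase 1, had 3 mutant reads and 46 wild-type reads. Unigene36442, one of the myrcene synthase hits, had 5 mutant reads and 59 wild-type reads. Unigenes without a Swiss-Prot hit were outside this search, and some were short with 0 mutant reads and low ratios. Unigene35435 (267 bases) had 39 wild-type reads and a log2 ratio of −3.96, and Unigene35371 (262 bases) had 28 and −3.55. The ratio of RPKM + 1 is nearer to 0 in longer unigenes of the same reads, so longer unigenes with 0 mutant reads stood farther off, among them the DNA ligase hit Unigene32228 (1412 bases, 44 wild-type reads, log2 ratio −2.04) and Unigene31678 (2194 bases, 52 wild-type reads, −1.75).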

How the data were processed

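RNA with poly(A) tails was sequenced from 1 mutant and 1 wild-type bud library, grouped by the source names in the labels. The authors deposited raw read counts per unigene and, per the file headers, the library totals, which equalled the column sums. The deposited RPKM values are the authors' and were recomputed from counts, lengths and totals, and each of the 2 libraries matched for 100% of unigenes to 1e-04. The lengths of the unigenes (another kind, other) and the E-values of best hits, a score, were deposited too. No source used here gives the assembler, aligner, counting tool, strand setting or filters.

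The ratio was log2((mutant RPKM + 1) / (wild-type RPKM + 1)), for unigenes with RPKM of at least 1 in at least 1 library, which set aside 1520. The pseudocount understates differences of low unigenes. Read ratios were scaled by library totals, with Clopper-Pearson intervals, and levels have exact Poisson intervals (Python 3.11.15, SciPy 1.17.1). Ratios and intervals were tested on simulated data, and no count model was fitted.

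The DCP1 members and the lists were chosen with earlier results of these data known. The 6 decay lists follow Swiss-Prot names, without accidental word matches, which were left out after they had been seen. The text names all DCP1 unigenes, and decapping and exoribonuclease unigenes past 2-fold or with at least 100 reads. Up to 4 of every other decay list are named by absolute ratio. Also named are the 5 unigenes nearest in ratio to the lowest member. These were sought among unigenes with a Swiss-Prot hit and a read total within 1.5 times. Named after their values were seen were the other unigenes without mutant or wild-type reads, those set beside them, XRN4, Unigene21249, Unigene4093, Unigene13889 and Unigene10512. So were Unigene5511, Unigene11167 and Unigene27382. The alternatives tried were other pseudocounts, minima, thresholds, scalings and sums.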

Additional observations from a re-analysis of the deposited data

How the results depend on the processing

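No paired analysis was possible because each group holds 1 library, and for the same reason no library could be left out. With a pseudocount of 0.1 the log2 ratios of Unigene32626, Unigene33507 and Unigene35373 were −7.29, −7.62 and −7.46, and with a pseudocount of 5 they were −2.04, −2.30 and −2.17. Centring on the median ratio and scaling by a trimmed mean moved no member by more than its counting error, nor the summed reads. The summed log2 ratio was −1.10 as a sum of RPKM and −0.087 for the long unigene alone (added after the data were seen), and it lay between −0.26 and −0.31 when any 1 short unigene was left out.

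Counts past 2-fold depended on the settings. Over all unigenes, 2948 were higher and 1818 lower in the mutant library. They were 4579 and 3165 with a pseudocount of 0.1, 280 and 92 with a pseudocount of 5, 1328 and 597 at RPKM of at least 5, 249 and 138 at 4-fold, 6768 and 4916 by a counting interval that excludes 1, 306 and 85 with at least 100 reads, and 716 and 374 with at least 500 bases. The higher share of calls was 61.9%, 75.3% with a pseudocount of 5 and 78.3% with at least 100 reads, and neither other scaling moved it by over 10 points. For the decay lists, the 1 higher and 4 lower unigenes became 3 and 10 with a pseudocount of 0.1, 0 and 0 with a pseudocount of 5 and at 4-fold, 1 and 2 at RPKM of at least 5, 20 and 17 by a counting interval that excludes 1, and 0 and 1 both with at least 100 reads and with at least 500 bases. The trimmed-mean scaling shifts log2 ratios by up to 0.04, and not at all for the unigenes with 0 mutant reads.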

Other observations

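The annotation gives the Arabidopsis locus At1g08370 for DCP1 and At1g08130 for DNA ligase 1, another entry with a unigene that had 0 mutant reads and at least 20 wild-type reads. Chosen after these values were seen, the unigenes whose annotation spells a locus from At1g08000 to At1g08799 numbered 26 over 6 loci. Of these, 5 had 0 mutant reads and 0 had 0 wild-type reads, against 1.73% and 1.87% of all 35775 unigenes. All 5 are numbered from 28000, where zeros in the mutant library were more frequent. There, 561 of 8131 unigenes had 0 mutant reads and 59 had 0 wild-type reads. The 3 DCP1 unigenes and the DNA ligase 1 unigene set the choice of these loci, so their zeros are no finding about them, and the fifth was Unigene34801, a pentatricopeptide repeat hit to At1g08070 with 0 mutant reads and 9 wild-type reads. Both unigenes of thioredoxin-like 1 (At1g08570) were well read, with 1807 mutant reads and 1397 wild-type reads on Unigene16806 and 1156 and 924 on Unigene16763. The position of these genes in the citrus genome was not analysed here.

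Among the unigenes read in the mutant library alone, the best read was Unigene23803, a weak hit to the human kelch protein KBTB3. It had 154 mutant reads and 0 wild-type reads. Against a floor of 3 wild-type reads it was at least 51.1-fold higher, and the limit of the exact interval was 41.1-fold. In the other direction, Unigene28572, the APL hit, had more wild-type reads than any DCP1 unigene that had 0 mutant reads. It was at least 38.5-fold lower against a floor of 3 mutant reads, with an exact limit of 30.8-fold.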
